A study of Homo sapiens with 24 samples.

Results

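The SYK inhibitor Entospletinib (Ento) was added to the BET inhibitor AZD5153 (AZD) in SU-DHL-4 cells, and the 3 arrays of cells given both compounds (Ento+AZD) were set against the 3 arrays of cells given AZD alone. These 6 arrays were taken by their labels from 24 in the series, and all 25575 rows of the expression table were examined. The cell line SU-DHL-4 came from a diffuse large B-cell lymphoma of the germinal centre type. Cells were exposed for 72 h to 0.01 µM AZD, or to the same dose of AZD together with 1 µM Ento. The other SU-DHL-4 arrays came from 3 cultures with the solvent DMSO and 3 with 1 µM Ento, and the same 4 treatments were applied to the Burkitt lymphoma line DG-75. Each line stands for 1 lymphoma, and the sample labels name no allele or transgene for either. The comparison asks what the SYK inhibitor changes in cells given the BET inhibitor at the same time.

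SYK is a tyrosine kinase that binds the phosphorylated CD79A and CD79B chains of the B-cell receptor and passes the signal on to BTK, BLNK and PLCG2, and from there to calcium, NF-kB, MAP kinase and PI3K pathways. Germinal centre-type lymphomas can depend on a low, antigen-independent form of this signal. BET proteins bind acetylated histones and recruit the elongation machinery to genes, and BET inhibitors lower the transcription of many lineage and cell cycle genes.

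The labelled cell type was checked against its markers. All 10 B-cell identity genes, among them MS4A1, CD79A and PAX5, lay above the array median in each of the 6 arrays, and their mean log2 value was 9.99 to 10.37 under AZD and 10.24 to 10.47 under Ento+AZD. Of the defining genes of T cells, 2 of 9 lay above the array median, as did 1 of 9 for myeloid cells and 2 of 6 for NK cells. Of those of fibroblasts and epithelium, 4 of 8 did. Array medians lay between 4.89 and 5.13 over the 12 SU-DHL-4 arrays, and arrays correlated at 0.981 to 0.991 within the AZD and Ento+AZD groups and at 0.98 to 0.991 between them. The median standard deviation of a row between replicates was 0.22 under AZD and 0.19 under Ento+AZD on the log2 scale. The series describes its replicates as biological triplicates, and the p-values below measure the spread between these arrays. With 3 arrays per group, their number limits the precision.

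Adding Ento to AZD changed 7 genes, of which 6 rose and 1 fell. A gene was called changed at a Benjamini-Hochberg adjusted p under 0.05 in limma, a linear model fitted to the log2 values of all genes, together with a change of more than 2-fold. The calls made up 0.0274% of all rows. The transcription factor gene BACH2, the nuclear factor gene AFF3, the adhesion protein gene LPP, the phosphodiesterase gene PDE4B and the protease gene TMPRSS15 were 2.32-fold to 3.02-fold higher, and SLAMF1, the gene for a lymphocyte surface receptor, was lower. An unadjusted p under 0.05 was reached by 1798 rows, 870 of them higher (3.4%) and 928 lower (3.63%), while a table without any change would give about 1279. The median row differed by -0.01 on the log2 scale. These are bulk RNA samples, in which fewer cells of a type and less RNA per cell cannot be told apart. The calls depended on the replicate number in the model, without which 1 gene and none of the 6 named here was called, and on single arrays. A fit that lacked AZD replicate 1, or 1 of the 3 arrays with both compounds, called a single gene that was none of the 6 named here, and a fit that lacked AZD replicate 3 called TMPRSS15 alone among these 6.

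BACH2 encodes a repressor that keeps B cells from turning into plasma cells. Its log2 values were 7.41, 8.01 and 7.08 in AZD replicates 1 to 3, and 8.96, 9.26 and 8.51 in Ento+AZD replicates 1 to 3. Every Ento+AZD array lay above every AZD array, and in both groups replicate 2 was the highest. BACH2 rose by 1.41 (SE 0.15, 95% interval 1.08 to 1.74, limma adjusted p = 0.00632), which is 2.66-fold. TMPRSS15 encodes enteropeptidase, which activates trypsinogen in the gut. It read 2.19, 2.69 and 1.91 under AZD and 3.84, 4.42 and 3.31 under Ento+AZD, so that the groups were again apart but every value stood below the median of its array. TMPRSS15 rose by 1.59 (SE 0.17, 95% interval 1.21 to 1.97, limma adjusted p = 0.00632), and no detection value is at hand to say whether such low values are expression. LPP encodes a LIM domain protein of cell adhesion sites. The LPP values were 7.81, 8.13 and 7.64 under AZD and 9.29, 9.34 and 8.81 under Ento+AZD, with a gap between the groups wider than the range within either. LPP rose by 1.29 (SE 0.17, limma adjusted p = 0.0241), or 2.44-fold.

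AFF3 encodes a lymphoid nuclear protein of the AFF family, whose members take part in transcription elongation. AFF3 read 7.34, 8.55 and 7.33 under AZD and 8.84, 9.44 and 8.57 under Ento+AZD. AZD replicate 2 stood well above its companions and just below the lowest Ento+AZD array, so the groups were barely separate. AFF3 rose by 1.21 (SE 0.17, limma adjusted p = 0.0314). PDE4B, which degrades cyclic AMP, had log2 values of 3.62, 3.67 and 2.88 under AZD and of 4.77, 4.89 and 4.65 under Ento+AZD. The Ento+AZD arrays lay close together and all above the AZD arrays, though all 6 values stood below their array medians, and PDE4B rose by 1.38 (SE 0.18, limma adjusted p = 0.0241). SLAMF1, which encodes a self-binding receptor of B and T cells, read 4.29, 4.18 and 5.23 under AZD and 3.01, 2.87 and 3.08 under Ento+AZD. All 3 arrays with both compounds were lower than any AZD array, and AZD replicate 3 was the highest and the only one above its array median. As for TMPRSS15, values this low cannot be told to be expression or not, for PDE4B and SLAMF1 alike, so the size of a fold is uncertain. SLAMF1 fell by 1.58 on the log2 scale (SE 0.21, 95% interval -2.04 to -1.11, limma adjusted p = 0.0303).

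**Figure D1:**
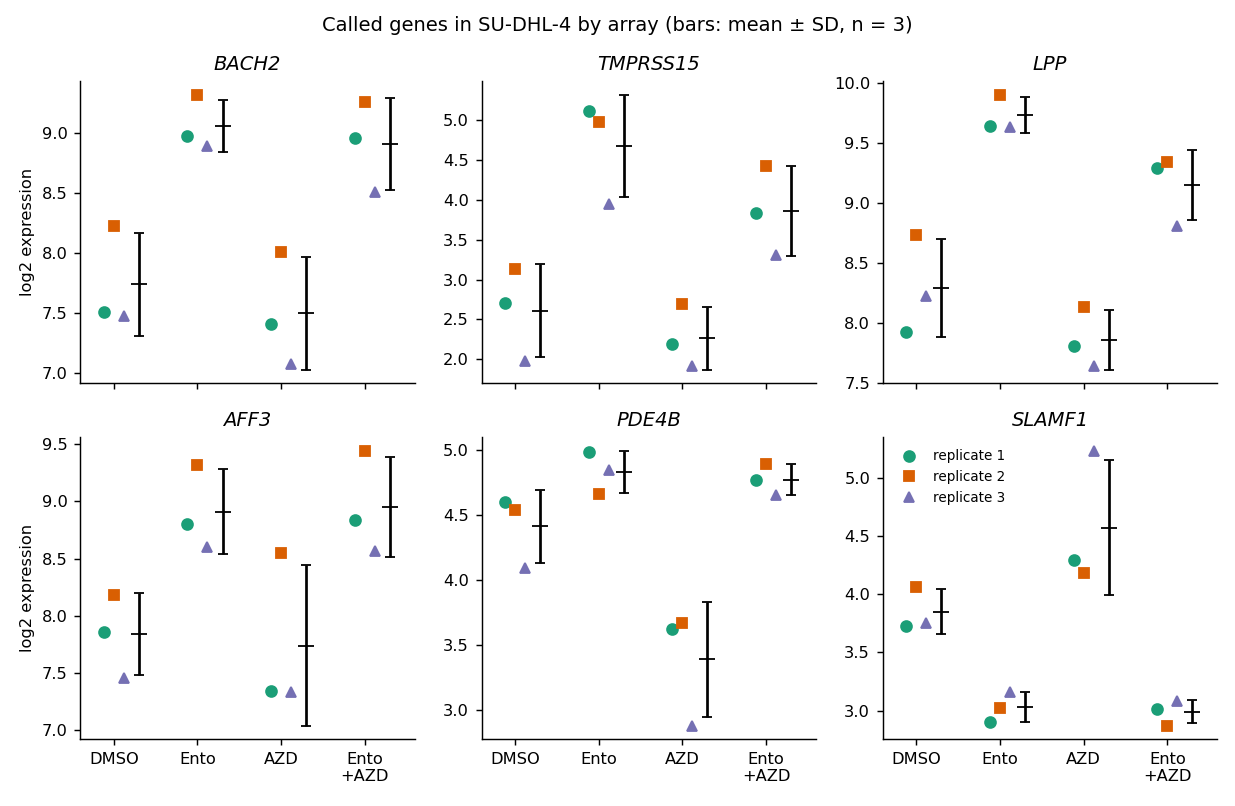
Log2 expression of 6 called genes in each of the 12 SU-DHL-4 arrays, by treatment, with 1 symbol per replicate number and with the mean and SD of the 3 arrays beside them. The Ento+AZD arrays lie above the AZD arrays for 5 genes and below them for SLAMF1, and the y axes differ between panels and do not start at 0.

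The sequences upstream of the 3 genes that were called both here and for Ento against DMSO and have an entry in the RefSeq promoter table are shown because these genes moved with Ento in separate sets of arrays. Each is the 250 bases before the annotated start in GRCh38.p14, written 5′ to 3′ in the direction of the gene. The window of BACH2 is chr6:90296844-90297093 on the minus strand, that of LPP is chr3:188153648-188153897 on the plus strand, and that of TMPRSS15 is chr21:18403786-18404035 on the minus strand. Capitals mark a match to GTGGGCG, the core of sites bound by EGR factors, in BACH2 and, on the opposite strand, in LPP, and a match to TGTTTAC, the FOXO site, in TMPRSS15.
BACH2: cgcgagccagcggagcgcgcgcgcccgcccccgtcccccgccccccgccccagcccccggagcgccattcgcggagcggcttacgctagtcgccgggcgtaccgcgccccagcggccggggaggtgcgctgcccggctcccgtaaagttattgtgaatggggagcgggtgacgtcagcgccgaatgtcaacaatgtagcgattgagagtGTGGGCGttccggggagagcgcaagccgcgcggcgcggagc
LPP: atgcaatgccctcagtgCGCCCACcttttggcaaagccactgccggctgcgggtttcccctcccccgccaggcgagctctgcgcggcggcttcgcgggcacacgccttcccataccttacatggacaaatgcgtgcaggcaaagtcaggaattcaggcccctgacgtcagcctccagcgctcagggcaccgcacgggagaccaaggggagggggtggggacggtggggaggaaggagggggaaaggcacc
TMPRSS15: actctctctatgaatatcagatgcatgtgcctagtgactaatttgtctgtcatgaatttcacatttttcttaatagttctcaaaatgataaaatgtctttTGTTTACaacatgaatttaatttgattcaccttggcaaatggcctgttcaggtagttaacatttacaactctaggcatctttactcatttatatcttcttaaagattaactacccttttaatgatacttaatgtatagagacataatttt
Motifs were searched on both strands in the promoters of the called genes and those next to them in p, 19 of which had an entry. GTGGGCG was present in 3 of these 19 (BACH2, LPP and SLC30A4) and in 8.53% of all 35116 promoters of this length. TGTTTAC occurred in 2 of the 19 (TMPRSS15 and ELOVL6), against 2.98% of all promoters. The AP-1 site TGACTCA, which BACH2 also binds, was found only before AIM2 among these genes, and 4.2% of all promoters held it. The ETS site GGAAGTG was found before AIM2 and ELOVL6, beside 9.28% of all promoters, and the E-box CACGTG before none of the 19, beside 6.34%. A match is a description of letters and is no evidence of binding.

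SPARCL1, which encodes a secreted matrix protein, passed the adjusted p but not the fold minimum. Its values of 3.12, 3.07 and 3.43 under AZD and of 2.15, 2.26 and 2.3 under Ento+AZD did not overlap, and the difference was -0.97 (SE 0.14, limma adjusted p = 0.0314), though all 6 values stood below their array medians, so that they may not be expression. The genes next in order of p, among those with 3 of 3 same-numbered differences of 1 sign, did not pass. A selection with known roles is given. Above AZD stood CEACAM1, an inhibitory adhesion receptor (1.13, limma adjusted p = 0.0588), the zinc exporter SLC30A4 (1.58, adjusted p = 0.0747), the actin-binding ABLIM1 (1.02, adjusted p = 0.0861) and the DNA sensor AIM2 (1.25, adjusted p = 0.0904). AIM2 reached 9.75, 9.84 and 9.75 with both compounds, against 7.86, 9.12 and 8.59 under AZD, so that the spread lay mostly in the AZD arrays. Below AZD stood ELOVL6, which lengthens fatty acids (-1.16, adjusted p = 0.255), the cystine transporter SLC7A11 (-0.82, adjusted p = 0.255), the chloride channel CFTR, also at values below the array medians (-0.77, adjusted p = 0.277), the tyrosine-degrading enzyme FAH (-0.78, adjusted p = 0.291) and the cyclic AMP-responsive factor CREM (-0.68, adjusted p = 0.316). The non-coding APCDD1L-DT, at values below the array medians too (-0.9, adjusted p = 0.132) and C1orf54 (-0.82, adjusted p = 0.255) came before these in order of p. Each of these 7 was named on condition that 3 of 3 same-numbered differences lay below 0, a condition that 13.9% of all rows met.

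The number of calls moved most with AZD replicate 2 among the 6 arrays. When it was left out, 22 genes were called, 21 higher and 1 lower, and all 7 calls were among them. The added calls, which were looked at after their values were seen, included COBLL1, an actin regulator gene, at 2.86, 4.64 and 2.94 under AZD against 5.1 to 5.61 under Ento+AZD. COBLL1 differed by 1.92 (limma adjusted p = 0.173) with all arrays and by 2.57 (adjusted p = 0.000186) without that array. The B-cell adaptor gene BANK1 gave 6.68, 7.86 and 6.62 under AZD against 7.72 to 8.08, and TNFSF10, the gene for the death ligand TRAIL, gave 5.2, 6.52 and 5.42 against 6.39 to 6.6. Whether this array was exposed or handled differently was not tested.

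Ento was also given without AZD, and those 3 arrays and the 3 DMSO arrays share no array with the comparison above, though they enter the same fit. Ento against DMSO called 13 genes, 10 higher and 3 lower (0.0508% of rows). The count fell to 1 without the replicate number in the model, to 7 after quantile normalization, all of them higher, and to between 2 and 7 with arrays left out. With AZD present, all 13 differed in the same direction and 12 had an unadjusted p under 0.05, beside 3.4% of all rows higher and 3.63% lower at that p. BACH2, TMPRSS15 and LPP were called in both settings, at 1.32, 2.07 and 1.44 for Ento alone. The SPARCL1 change was -1.02 (limma adjusted p = 0.0259) without AZD, close to its -0.97 with AZD. CEACAM1 differed by 1.14 without AZD and by 1.13 with AZD. Smaller values with AZD were seen for DENND1B, which activates a Rab GTPase (-1.62 and -0.98), for the calcium channel TRPC6 (1.65 and 0.99), for the lipid transporter ABCA6 (1.66 and 1.06), for the immunoglobulin lambda-like IGLL5 (1.55 and 0.83), for the non-coding LINC01781 (1.21 and 0.65), for C1orf54 (-1.17 and -0.82) and for the cytokine LTB (1.02 and 0.3). These genes were chosen by their values without AZD, and none of the differences between the settings was called. Across all rows the log2 fold changes of the comparisons correlated at r = 0.23 and rho = 0.16, and at 0.37 and 0.27 over the 12788 rows at or above the median level. These are descriptions over rows that share the same arrays.

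**Figure D2:**
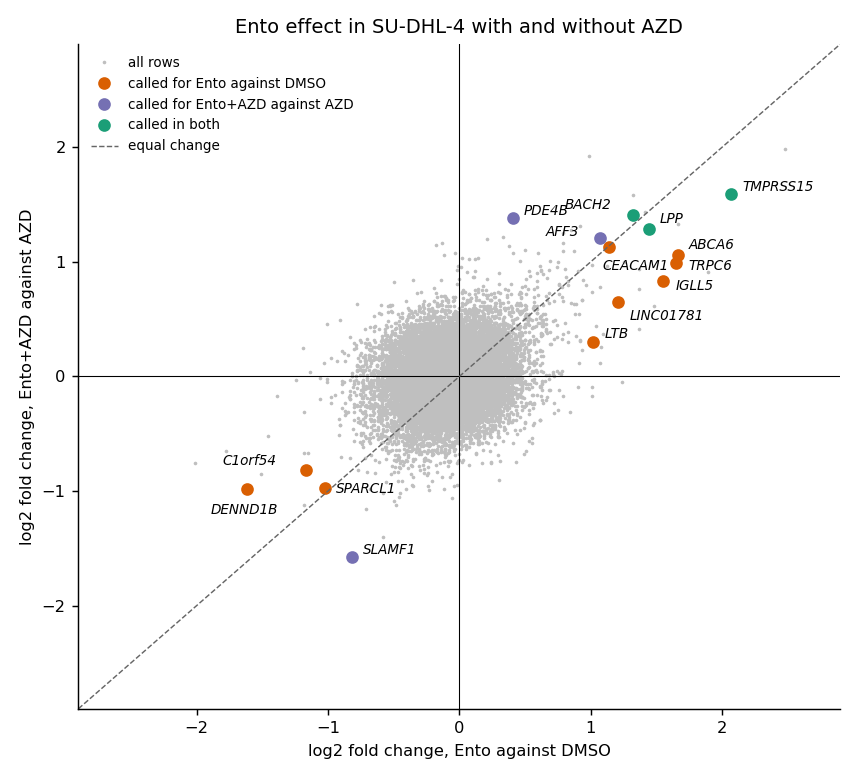
Log2 fold change in SU-DHL-4 for Ento against DMSO (x axis) and for Ento+AZD against AZD (y axis) of every row (grey), with 15 named genes in colour by the comparison that called them and the line of equal change dashed. The named genes have the same sign on both axes, PDE4B above the line and LTB below it.

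Whether the effect of Ento depended on AZD was tested directly, as the change with AZD minus the change without it. No gene was called (0% of rows, smallest limma adjusted p = 0.96), and 1276 rows had an unadjusted p under 0.05, where a table without change would give about 1279. Of these, 920 lay above 0 and 356 below, but the split was 708 to 685 after quantile normalization and 497 to 926 after subtraction of array medians, and the median of all rows moved from 0.06 to 0 and to -0.05. For BACH2 the difference of the changes was 0.09 (95% interval -0.38 to 0.56), for LPP it was -0.15 and for AFF3 0.14. PDE4B gave the largest positive value of the 6 genes, 0.96 (95% interval 0.42 to 1.51, limma adjusted p = 0.96). Its mean was 4.41 under DMSO, 4.83 under Ento, 3.39 under AZD and 4.77 under Ento+AZD, so that it stood apart under AZD alone. SLAMF1 gave -0.76 (95% interval -1.42 to -0.1, adjusted p = 0.96), with means of 3.85, 3.03, 4.57 and 2.98 in the same order. The means under Ento and under Ento+AZD were near each other for both genes, and the DMSO and AZD means were not. Since the 6 genes were chosen by their change with AZD, which enters this difference, these intervals are a description.

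In DG-75 the same addition of Ento to AZD called no gene by limma (0% of rows, smallest adjusted p = 0.941), with 1030 rows at an unadjusted p under 0.05, 2.01% of rows higher and 2.02% lower. Of the 7 genes called in SU-DHL-4, 5 had the same direction in DG-75. PDE4B differed by 1.27 there, close to its 1.38 in SU-DHL-4 (difference between the lines 0.11, 95% interval -0.67 to 0.89, adjusted p = 1). AFF3 differed by 0.67, BACH2 by 0.47, TMPRSS15 by 0.16 (95% interval -0.18 to 0.5) and SLAMF1 by 0.15 (95% interval -0.23 to 0.52) in DG-75, where SLAMF1 read 2.73 to 3.08 in these arrays. LPP was the 1 gene called for a difference of the response between the lines (0.00391% of rows). In DG-75 its values were 10.72, 10.62 and 10.75 under AZD and 10.3, 10.22 and 10.57 under Ento+AZD, above all SU-DHL-4 arrays and lower with Ento. The difference between the lines was 1.62 (SE 0.2, limma adjusted p = 0.00685). This comparison called 0 genes without the replicate number in the model, without Ento+AZD replicate 1 or 2 of DG-75, without AZD replicate 3 of SU-DHL-4, and without all arrays of any 1 replicate number. The difference was -1.72 for SLAMF1 and 1.43 for TMPRSS15, each at a limma adjusted p = 0.0563. Neither gene is shown to be expressed in DG-75, where TMPRSS15 read 1.6 to 2.21. A fall of SLAMF1 could therefore not have been seen there. ELOVL6 differed by -1.16 in SU-DHL-4 and by 0.58 in DG-75, again at an adjusted p = 0.0563 for the difference.

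**Figure D3:**
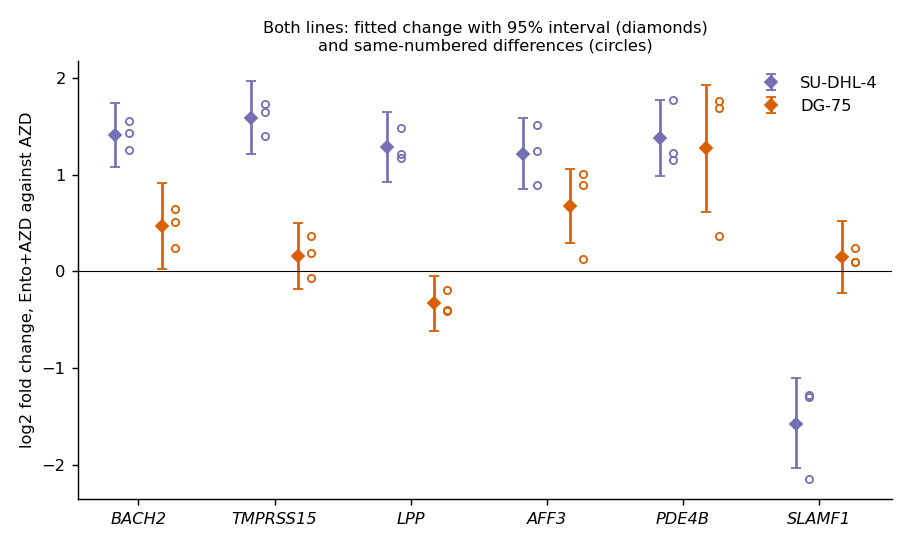
Log2 fold change of Ento+AZD against AZD (y axis) for 6 genes called in SU-DHL-4, shown for each line. Diamonds with bars are the fitted changes with 95% intervals and circles are the 3 differences of same-numbered arrays, and the DG-75 intervals of TMPRSS15 and SLAMF1 span 0.

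The drug targets described here were not called. SYK read 8.96, 9.29 and 8.83 under AZD and 9.39, 9.45 and 9.24 under Ento+AZD, a difference of 0.33 (limma adjusted p = 0.657). BRD3 differed by 0.26 and BRD2 by 0.04, the latter with a sign that turned when single arrays were left out. MYC, a gene often lowered by BET inhibitors, differed by -0.2 (95% interval -0.5 to 0.1). Among the 15 drug targets and BET-linked genes, the transcription factor MYB had the lowest value, at 5.52, 5.14 and 5.97 under AZD and 4.64, 3.24 and 5.39 under Ento+AZD (-1.12, limma adjusted p = 0.501).

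Of 31 genes of SYK and proximal B-cell receptor signalling, none was called, and 8 were higher and 1 lower at an unadjusted p under 0.05, beside 3.4% and 3.63% of all rows. Among the 8 were the ubiquitin ligase CBLB (0.61), the kinases PRKCB (0.57), BLK (0.35) and SYK itself, the adaptors DAPP1 (0.41) and BLNK (0.39) and the exchange factor VAV1 (0.32). MALT1, the protease that links the receptor to NF-kB, was the lower member (-0.41). The list's median was 0.12, beside -0.01 over all rows. By same-numbered arrays the median was 0.37, -0.06 and 0.09, so most of it lay in replicate 1. Of 35 early genes downstream of the receptor, none was called, 2 were higher and 4 lower at that p, and the median was -0.16. The activation marker CD69 read 4.6, 4.85 and 3.81 under AZD and 6.08, 5.28 and 4.73 under Ento+AZD (0.94, limma adjusted p = 0.438). The ETS factor ETV5 differed by 0.67, at values below the array medians, so that they may not be expression. The 4 lower ones were the chemokine CCL3 (-0.42), KLF10 (-0.41), IER2 (-0.36) and SPRED1 (-0.36). EGR1, an immediate early transcription factor, differed by -0.4 but was not lower at that unadjusted p. Among 24 NF-kB target genes, 2 were higher at that unadjusted p, the receptor CD40 (0.59) and the caspase regulator CFLAR (0.53). The 2 that were lower at that p were the cytokine TNF (-0.54) and the adaptor TRAF1 (-0.51). Of 30 genes of MAP kinase feedback and the PI3K pathway, 0 were higher at that p and 1, the feedback inhibitor SPRED1 (-0.36), was lower.

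Of 30 germinal centre and plasma cell regulators, 2 were called higher, beside 0.0274% of all rows called, 5 were higher at an unadjusted p under 0.05, beside 3.4%, and 27 lay above 0. BACH2 led the named ones, followed by the MYB relative MYBL1 (0.6), the transcription factor FOXP1 (0.5) and the co-activator POU2AF1 (0.42). In 10 of the 30 the groups did not overlap, higher with Ento, as in 4.15% of all rows. FOXP1 read 8.44, 8.87 and 8.54 under AZD and 9.13, 9.35 and 8.87 under Ento+AZD, a difference of 0.5 (limma adjusted p = 0.524). The germinal centre repressor BCL6 differed by 0.03, the plasma cell factor PRDM1 by -0.07 and IRF4 by 0. The list's median of 0.23 became 0.07 without AZD replicate 1, and by same-numbered arrays it was 0.44, 0 and 0.14. The 10 B-cell identity genes moved with it, all 10 above 0 and 4 higher at that p, with a median of 0.24 and of 0.4, 0.12 and 0.24 by same-numbered arrays, and their part in the values of this list was not tested. Of 14 MHC class II genes, 3 were higher at that p: the chaperone subunit HLA-DOB (0.56), the protease CTSS (0.55) and the transactivator CIITA (0.4). None of the 11 SLAM family receptors and adaptors other than SLAMF1 was called, with LY9 at 0.58 and CD48 at -0.32. In the 20 migration and positioning receptors, 4 were higher at that p, among them GPR183 (1.33), CXCR4 (0.71) and CXCR5 (0.45), and 1 was lower, the integrin ITGAL (-0.38). GPR183, which guides B cells to the edge of the follicle, read 6.08 in Ento+AZD replicate 1 but 4.73 and 4.38 in the others, against 2.97, 4.55 and 3.68 under AZD (limma adjusted p = 0.538).

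**Figure D4:**
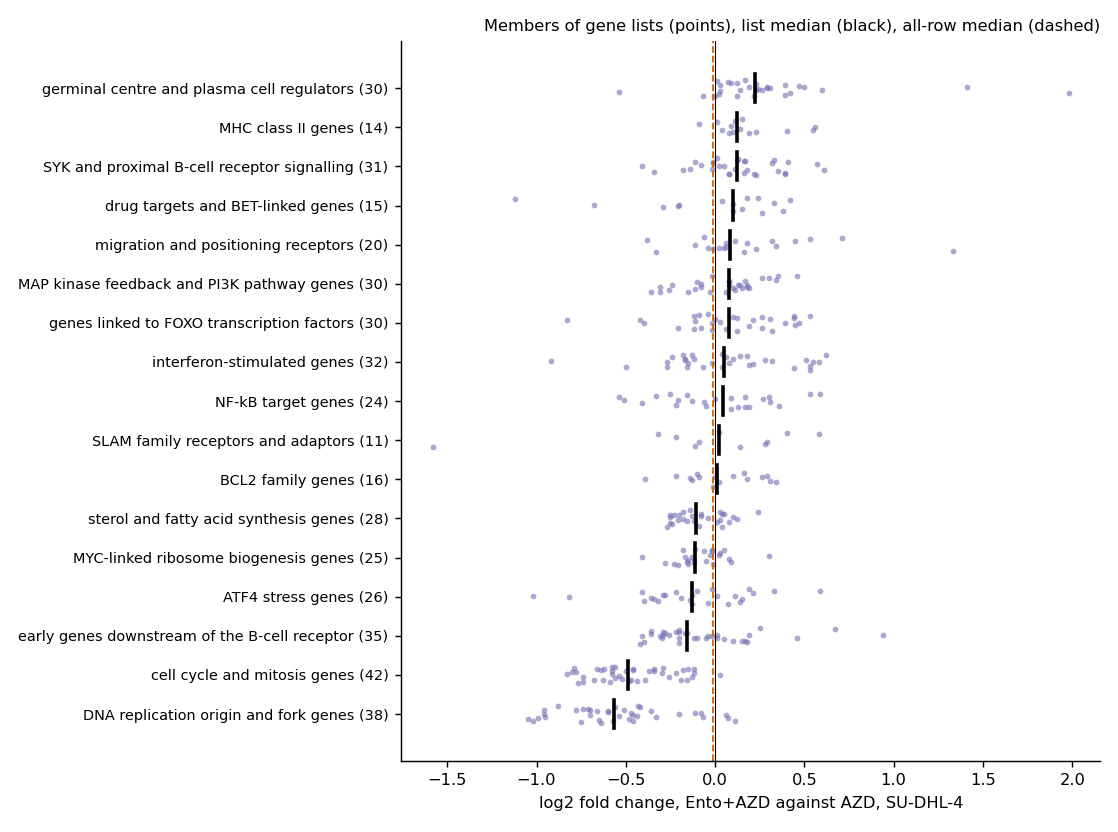
Log2 fold change of Ento+AZD against AZD in SU-DHL-4 (x axis) for the members of 17 gene lists, each a point, with the number measured in brackets, the list median as a black bar and the median of all rows dashed. The 2 lists of replication and cell cycle genes lie lowest, with medians of -0.56 and -0.49.

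DNA replication and cell cycle genes stood lower with Ento added, most of all in replicate 2. Of 38 genes of replication origins and forks, none was called, 25 had lower values at an unadjusted p under 0.05, where 3.63% of all rows did, and 35 lay below 0. The median was -0.56, beside -0.01 over all rows. Among them were the GINS subunit GINS2 (-1.02), the histone chaperone subunit CHAF1B (-1.05) and the ribonucleotide reductase subunit RRM2 (-0.95). GINS2 read 7.57, 6.95 and 7.83 under AZD and 6.54, 5.41 and 7.33 under Ento+AZD, and CHAF1B 6.38, 5.89 and 6.87 against 5.68, 3.99 and 6.31. Each pair of same-numbered arrays differed downwards, yet the groups overlapped, as they did for all 38 genes, while 5.03% of all rows had Ento+AZD arrays wholly below the AZD arrays. Of 42 cell cycle and mitosis genes, none was called, 17 were lower at that p, 41 lay below 0, and the median was -0.49. MKI67, a marker of cycling cells, read 9.98, 9.14 and 10.04 under AZD and 9.37, 7.92 and 9.56 under Ento+AZD (-0.77, limma adjusted p = 0.543), and cyclin A2 (CCNA2) differed by -0.8.

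The median difference of the replication list was -0.32, -1.04 and -0.32 in replicates 1, 2 and 3, and that of the cell cycle list -0.12, -1.01 and -0.2. The mean of the replication list was 7.59, 7.34 and 8.03 in the AZD arrays and 7.35, 6.29 and 7.7 in the Ento+AZD arrays. Replicate 2 was also the lowest under Ento alone, at 7.35 against 8.27 and 8.58, but not under DMSO, at 8.16 between 7.97 and 8.62. Without Ento+AZD replicate 2, 6 of the 38 replication genes and 1 of the 42 cell cycle genes were lower at an unadjusted p under 0.05, with medians of -0.36 and -0.23, while 2.89% of all rows were lower at that p, so that the cell cycle count was no longer above the share of all rows. Without AZD replicate 2 the counts were 10 and 4 (3.73% of all rows), and without the replicate number in the model 2 and 1 (2.54% of all rows). The medians were below 0 under every scaling of the arrays and with any array left out. Ento against DMSO gave medians of -0.2 and -0.32 for the lists, with 31 of 38 and 41 of 42 genes below 0, and DG-75 gave -0.17 and -0.22, with 37 of 38 and 41 of 42 below 0, with 0 to 2 members lower at that p, beside 6.29% and 2.02% of all rows.

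**Figure D5:**
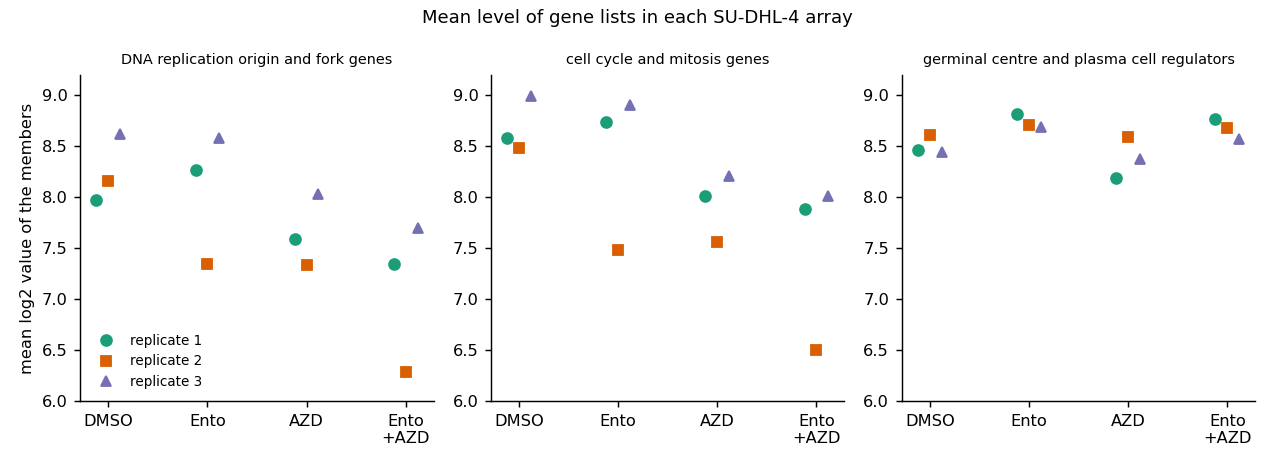
Mean log2 value (y axis, from 6 upwards) of the 38 replication genes, the 42 cell cycle genes and the 30 germinal centre and plasma cell regulators in each of the 12 SU-DHL-4 arrays, by treatment and replicate number. Replicate 2 of Ento+AZD has the lowest mean of the first list, 6.29, and of the second.

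No member of the remaining lists was called. Of 32 interferon-stimulated genes, 6 were higher and 2 lower at an unadjusted p under 0.05, beside 3.4% and 3.63% of all rows, and the median was 0.05. PARP9, a mono-ADP-ribosyltransferase partner, read 6.09, 6.34 and 6.27 under AZD and 5.47, 5.32 and 5.16 under Ento+AZD (-0.92, limma adjusted p = 0.503), and the exonuclease ISG20 differed by 0.62. In DG-75 the same list had a median of 0.78, with 19 genes higher at that p, beside 2.01% of all rows, and 0 called. Of 26 ATF4 stress genes, 6 were lower and 1 higher at that p, beside the same shares of all rows, with the mTOR inhibitor DDIT4 at 10.21, 8.48 and 9.04 under AZD and 8.21, 8.26 and 8.19 under Ento+AZD (-1.02, limma adjusted p = 0.438). Of 30 genes linked to FOXO transcription factors, 4 were higher at that unadjusted p, among them the sestrin SESN3 (0.47) and the mTORC2 subunit RICTOR (0.44). The 2 that were lower at that p were the interleukin receptor IL7R (-0.83) and TRIB1 (-0.42). In the BCL2 family the death agonist BID (-0.39) and PMAIP1 (0.34) were the 2 of 16 genes under that p. None of the 28 sterol and fatty acid synthesis genes had such a p. In the list of 25 MYC-linked genes, mainly of ribosome biogenesis, only the lactate dehydrogenase LDHA (-0.41) did.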

How the data were processed

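The deposited table holds log2 values of 24 Clariom D arrays. The authors obtained them by RMA with limma and assigned probes to genes through affycoretools and an annotation package of the array. Versions, the genome build and detection values are not given in the sources used here. Of 25161 symbols, 315 had several rows, and such a gene is shown by its row with the highest mean. Here, limma 3.58.1 in R 4.3.3 (lmFit, contrasts.fit, eBayes) was fitted to the 12 SU-DHL-4 arrays with treatment and replicate number. The study's methods have a batch term but do not say what the batch was. The difference between lines came from 1 fit of 24 arrays with replicate number within line. P-values were adjusted by Benjamini-Hochberg over 25575 rows. A call needed a log2 fold change beyond 1 in either direction besides an adjusted p under 0.05. Genes were named by call, by up to 12 smallest p in each direction with 3 same-numbered differences of 1 sign, and by up to 3 per list. Further list members and genes called in other fits are given beside these. The members, gene lists and tests were chosen with earlier results of these data known. Some genes of this rule, 1 of them called, are not reported here. Promoters came from RefSeq (GRCh38.p14). The calculations were tested on simulated data.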

Additional observations from a re-analysis of the deposited data

Results flagged for a closer look

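The response of LPP to Ento added to AZD differed between the lines, by 1.62 on the log2 scale (SE 0.2, limma adjusted p = 0.00685 over all rows, SU-DHL-4 minus DG-75). In SU-DHL-4 the change was 1.29 and 3 of 3 same-numbered differences were above 0, while in DG-75 it was -0.33. The comparison of the lines called 0 genes without the replicate number in the model, without 3 of the 12 arrays compared when each was left out in turn, and without all arrays of any 1 replicate number. Which property of the lines or of their cultures goes with this was not tested.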

How the results depend on the processing

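With 3 arrays per group the number of calls depended on single arrays and on the model. For Ento+AZD against AZD in SU-DHL-4, 7 genes were called, 1 without the replicate number as a block, 15 with a variance prior set by expression level, 1 from the 6 compared arrays alone, 12 from a fit of 24 arrays, and 0 to 22 with arrays left out. The lowest count came without all arrays of replicate 1 and the highest without AZD replicate 2. None of the 6 genes described was called without the block, and their log2 fold changes kept their direction in all 16 or 17 settings tried, as for BACH2 (1.32 to 1.49, adjusted p from 0.000113 to 0.374). For Ento against DMSO, 13 genes were called, 1 without the replicate block, 7 after quantile normalization (all higher, against 10 of 13), 32 with the other prior, 25 from 24 arrays and 2 to 7 with arrays left out. The difference between the lines gave 1 call, 0 without the block, 3 without low rows or with the other prior, 4 after quantile normalization or subtraction of array medians, and 0 to 2 with arrays left out. The dependence of Ento on AZD and the DG-75 comparison gave 0 calls in every setting. Subtracting array medians moved the median of all rows by 0.12 for Ento against DMSO and by -0.11 for the dependence on AZD.

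Alternatives for the gene lists were chosen after seeing the data. Replication genes lower at an unadjusted p under 0.05 numbered 25, then 2 without the block and 6 to 28 with arrays left out. Cell cycle genes numbered 17, then 1 without the block and 1 to 22. Germinal centre regulators that were higher numbered 5, then 11 after quantile normalization and 3 to 8 with arrays left out, while the share of all rows that were higher at that p went from 3.4% to 4.59% after quantile normalization, 2.08% without Ento+AZD replicate 1 and 6.75% without AZD replicate 2. Among the settings with an array left out, the lowest counts of the first pair came without Ento+AZD replicate 2, and those of the third list without replicate 1 of either treatment. The difference of BRD2, 0.04, ranged from -0.11 to 0.14 with arrays left out, and was -0.09 without AZD replicate 1 and -0.04 without Ento+AZD replicate 1. Of 1260 values in other settings of the 75 genes chosen by the naming rule, 1257 kept their direction. Further list members given in the text were not part of this check. Deviations of same-numbered arrays from their group means correlated at -0.03 to 0.2 between AZD and Ento+AZD and at -0.11 to 0.39 over all SU-DHL-4 pairs, and those of differently numbered arrays at -0.29 to 0.11. Not every same-numbered pair was above the other pairs, and the labels do not say what the numbers share. No array signal over background was at hand, and the cause of these shifts was not tested.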
